A study of Drosophila melanogaster with 2 samples.

Results

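A set of genes at the head of the fly's steroid hormone response were examined for regions occupied by a tagged Eyeless protein. They are EcR, usp, br, Eip74EF, Eip78C, Hr3, Hr4, Hr39 and ftz-f1, taken by name as a set of 9 of the 13945 protein-coding genes in the gene models used. A region was assigned to a gene when its summit lay inside the gene or within 1 kb of it. By that rule 44 of the 6835 optimal regions belonged to these genes, and 8 of the 9 genes had at least 1.

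Ecdysone, the moulting steroid, acts through a heterodimer of the proteins of EcR and usp, the fly counterpart of the vertebrate retinoid X receptor. The hormone-bound dimer switches on early regulators such as br and Eip74EF, then further nuclear receptors such as Eip78C, Hr3 and Hr4, and these time the later response, including the brief prepupal expression of ftz-f1. Wandering larvae are at the threshold of metamorphosis, the stage at which this cascade starts in many tissues. Eyeless is a fly Pax6 protein, a paired-domain and homeodomain factor of the eye and brain.

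The material was ChIP-seq of whole wandering larvae of the third instar, with males and females pooled, from a transgenic line (ey-GFP) that stably carried Eyeless with GFP at its C terminus. The labels name an antibody against GFP in their description and ey in their antibody entry. There were 2 biological replicates, numbered 1 and 3, in 1 group, so no condition was compared and no test between groups could be made. Whole larvae were used, so a region cannot be placed in any one tissue, and the lists hold no RNA measurement and no read totals.

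Each region has a deposited signal, the authors' own strength value on a scale that the sources used here do not state, and a rank by that signal within its list. The optimal list holds the regions kept by an irreproducible discovery rate procedure, which rests on agreement between replicates, and its lowest signal was 79.3. These regions were exactly the top of a pooled list of 30000, so ranks in both lists were the same and weaker pooled regions fell just below. Being in the optimal list does not by itself mean that a region was found in both replicates. Of the 6835 optimal regions, 6712 overlapped a region in each whole replicate list. Rank 1 is the strongest. Replicate values below are the rank, and the signal within that replicate's own list, of its strongest region that overlapped the region described.

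Of the 9 genes 8 had an optimal region, in a genome where 34.1% of protein-coding genes had one. Long genes collect more regions, and 8 of these genes measured between 22426 and 89738 bp. Among the 796 protein-coding genes of that length range, 62.2% had an optimal region, next to 7 of the 8. The count of 8 was the same in the 6835 strongest regions of replicate 3 (34.5% of all protein-coding genes) and became 9 in those of replicate 1 (33.4%). All 9 genes had a pooled region, as did 63.4% of protein-coding genes, 258 regions in all. Optimal regions numbered 0.945 per 10 kb of the 9 genes and their flanks, against 0.532 over all genes of the same length range and 0.668 over all protein-coding genes. Without usp, the gene shorter than that range, the density was 0.913 per 10 kb.

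The genes differed widely in how many regions they held and how strong these were. The count of optimal regions was 11 at Eip74EF, 10 at EcR, 8 at Hr4, 4 at Hr3, 3 each at br, Eip78C and ftz-f1, 2 at usp and 0 at Hr39. Among the 796 genes of the length range, 1.38% had 11 or more regions, 3.02% had 10 or more and 5.65% had 8 or more, while the median was 1. Rank did not follow that count. By their strongest region the genes came in the order Eip78C (rank 72), Hr4 (108), EcR (847), Eip74EF (976), Hr3 (1839), usp (1947), ftz-f1 (2531), br (3865) and Hr39, whose strongest pooled region had rank 8392. Of the length range, 1.88% of genes had a region as strong as that of Eip78C and 2.89% one as strong as that of Hr4, against 49.2% for br.

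**Figure D1:**
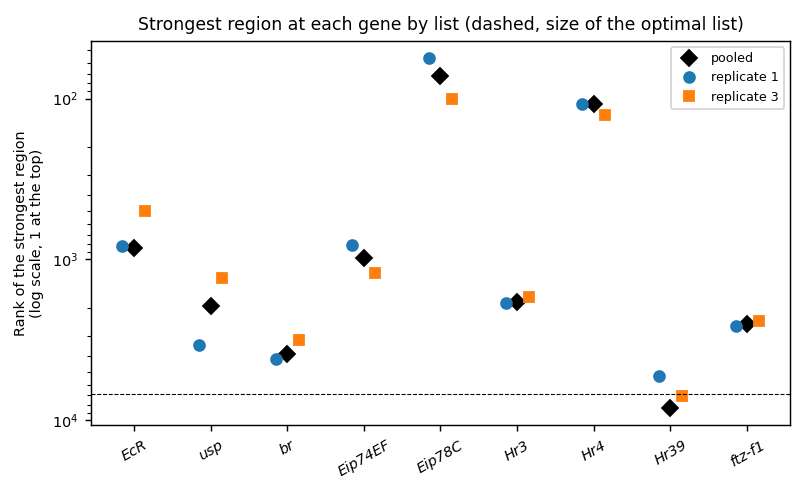
Rank of the strongest region at each of the 9 genes, in the pooled list and in the list of each replicate (log scale, rank 1 at the top). Eip78C and Hr4 stand well above the rest in each list. The order of EcR and Eip74EF is the same in the pooled list and in replicate 3 and opposite in replicate 1, and Hr39 is the lowest in every list.

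Some neighbours in that order were not told apart by the replicates. Eip78C stood before Hr4 in replicate 1 (rank 56 against 108) and in replicate 3 (101 against 126). EcR and Eip74EF exchanged places, with ranks 821 and 814 in replicate 1 and 498 and 1216 in replicate 3. Hr3, usp and ftz-f1 had ranks 1856, 3419 and 2587 in replicate 1 but 1723, 1297 and 2401 in replicate 3, so their order changed too. Of these 3, usp had the widest gap between its replicates.

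EcR encodes the receptor itself. Its gene (2R, 6087873 to 6169087, minus strand, 81215 bp) has 3 groups of start sites, the first for EcR-RA, the next 11958 bp downstream for EcR-RD and EcR-RE, and the last at 37165 bp for EcR-RB, EcR-RC and EcR-RG. None had an optimal summit within 500 bp. The nearest lay 512 bp upstream of the last group (6132361 to 6132540, signal 223.2, rank 1962), with rank 2723 in replicate 1 and 1857 in replicate 3. It therefore fell just outside the limit used for a promoter.

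The regions of EcR gathered between its start sites. In the 37.2 kb from the first to the last group lay 9 of the 10 regions, or 2.42 per 10 kb, and in the 45.0 kb after the last group lay 1. The strongest (6144257 to 6144636, signal 392.4, rank 847) was intronic, 12536 bp upstream of the last group, and had rank 1447 with signal 149.8 in replicate 1 and rank 498 with signal 250.7 in replicate 3. The next was also intronic (6134511 to 6134834, signal 365.9, rank 950), 2746 bp upstream of the last group, with ranks 821 and 1179 in replicates 1 and 3. The replicates placed these regions in opposite order, the first ahead in replicate 3 and the second in replicate 1.

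The other EcR regions were weaker. A region at 6151103 to 6151395 (signal 344.4, rank 1052) had ranks 1215 and 931 in replicates 1 and 3, and 5867 bp separated it from the start site of EcR-RD and EcR-RE upstream of it. A neighbouring pair at 6147478 to 6147683 (signal 225.6) and 6147714 to 6147919 (signal 187.1) overlapped the same region in each replicate, so they are not independent. The region at 6145863 to 6146292 (signal 131.9, rank 3973) was weaker but in both top lists. The last 3 regions did not reach the 6835 strongest regions of both replicates. They were 6120260 to 6120689 (signal 101.8, ranks 4032 and 10442), 6141427 to 6141856 (signal 98.6, ranks 3785 and 7796, within 1 kb of tRNA genes) and 6156065 to 6156494 (signal 85.5, ranks 7588 and 6071, in the 5′ UTR). At the start site of EcR-RA the strongest pooled region within 500 bp had a signal of 53.1, with its summit 37 bp away, and at that of EcR-RD and EcR-RE a signal of 67.4.

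At usp, the gene of the receptor's partner, a short gene on X (2038798 to 2042311, minus strand, 3514 bp), the region lay at a promoter. Its summit was 137 bp upstream of the start site of usp-RA, inside an intron of usp-RB (2041333 to 2041540, signal 224.5, rank 1947). Replicate 1 gave it rank 3419 and signal 80.6, and replicate 3 rank 1297 and signal 143.4, so it was stronger by rank in replicate 3. The other region (2041437 to 2041866, signal 96.7) overlapped the first and the same replicate regions. Both also lay within 500 bp of the start site of CG4313 on the other strand, and the gene Actn extends across both summits. The distances do not tell which gene is concerned. The upstream start site, that of usp-RB, had a pooled region of signal 71.4, which fell short of the optimal list, and Actn starts at the same base.

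At br, which encodes the Broad zinc-finger proteins, an early regulator that specifies pupal development, the regions were few and weak. The gene (X, 1575132 to 1664869, plus strand, 89738 bp) was the longest of the 9 and had 7 start-site groups and 59 pooled regions, but 3 optimal ones. All 3 lay between the first start-site group, of br-RN and br-RO, and the other 6, at 1580364 to 1580793 (signal 135.1), 1595715 to 1596144 (115.1) and 1598707 to 1599136 (119.1). In replicate 1 they had ranks 5003, 4168 and 4152 and in replicate 3 ranks 3194, 6045 and 5254, so all 3 were in both top lists. No optimal summit came closer than 5430 bp to a start site of br, and the 43.1 kb after the last group held none. Near the start sites of br the strongest pooled region had a signal of 63.7, 168 bp from that of br-RC. The gene Mur2B spans the whole of br on the other strand, so each of these regions lies in both genes. The summit window of the strongest br region, 50 bp to either side, is shown on the gene's strand (dm6, chrX:1580529-1580629). It holds none of the 5 motifs searched for, which are given further on, so that it has no capitals.
br: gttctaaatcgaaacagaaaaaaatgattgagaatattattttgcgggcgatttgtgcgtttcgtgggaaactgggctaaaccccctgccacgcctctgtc

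Eip74EF encodes an ETS-domain factor of the early response and had the most regions of the 9 genes. The gene (3L, 17558672 to 17619325, minus strand, 60654 bp) has a distal start-site group for Eip74EF-RA, Eip74EF-RC and Eip74EF-RE, and proximal ones 42699 bp downstream for Eip74EF-RB and 43005 bp downstream for Eip74EF-RD. The distal promoter had an optimal region 240 bp upstream (17619505 to 17619699, signal 261.2, rank 1571), with ranks 1680 and 1693 in replicates 1 and 3, nearly equal. The proximal start sites had none within 500 bp.

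The strongest Eip74EF region lay 1902 bp upstream of the start site of Eip74EF-RB (17578353 to 17578634, signal 357.4, rank 976). Its rank was 814 with signal 216.2 in replicate 1 and 1216 with signal 149.4 in replicate 3, and the summits of both were within 33 bp of it. A run of weaker regions followed on its upstream side, at 17579228 to 17579443 (signal 160.0) and 17579747 to 17580176 (signal 106.0). Between these and the proximal start sites the pooled list held regions just short of the optimal list, with signals of 76.0 and 77.6. The proximal promoters thus had weaker regions than the intron upstream of them.

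Farther upstream, toward the distal start sites, 4 more regions were found, all intronic. They lay at 17611448 to 17611685 (signal 237.5, ranks 2029 and 1758 in replicates 1 and 3), 17608734 to 17608878 (184.2, ranks 2322 and 2380), 17592566 to 17592995 (97.6) and 17590971 to 17591400 (82.1). The last missed the top list of replicate 1, where its rank was 8683. Downstream of the proximal start sites lay 3 regions, an overlapping pair at 17566716 to 17567145 (signal 138.2) and 17566924 to 17567353 (signal 103.1), and a region at 17570007 to 17570436 (signal 80.6). This last was the weakest optimal region of the 9 genes, with rank 4879 in replicate 1 but 23801 in replicate 3. The sequence around the summit of the strongest region is shown on the gene's strand (dm6, chr3L:17578478-17578578, minus strand). Its GC content was 22.8%, against 55.0% in windows centred 300 bp to either side. Optimal regions at EcR and Hr3 went lower at the summit, to 18.8% and 20.8%.
Eip74EF: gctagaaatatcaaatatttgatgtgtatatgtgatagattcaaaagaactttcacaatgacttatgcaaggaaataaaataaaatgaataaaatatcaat

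Eip78C, a nuclear receptor gene of the early-late class, had the strongest region of the 9 genes. The gene lies on 3L (21226609 to 21266503, plus strand, 39895 bp) and its region at 21253625 to 21254101 had a signal of 1276 and rank 72. It had rank 56 with signal 750.8 in replicate 1 and rank 101 with signal 534.9 in replicate 3, and the replicate summits were 0 and 7 bp from its own. So both replicates placed it near the top and at nearly the same base. It was intronic, 13558 bp downstream of the start site of Eip78C-RB, the nearest one. The other regions, at 21251276 to 21251705 (signal 146.3) and 21256054 to 21256483 (signal 118.5), lay on either side of it and were far weaker. No optimal or other pooled region was found within 500 bp of the first start sites, those of Eip78C-RA, Eip78C-RD and Eip78C-RE, and at that of Eip78C-RB the signal was 40.3.

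Hr4, a nuclear receptor gene that also acts in the control of larval growth, was the other gene with regions of high rank. On X (1941940 to 2007956, plus strand, 66017 bp) it has a start-site group for 7 transcripts and another, 50360 bp downstream, for Hr4-RE and Hr4-RF. All 8 optimal regions were intronic and lay between these groups, and 7 of them within 9381 bp. Of these the strongest pair, 4150 bp apart, was almost equal, with signals of 1054 (1947535 to 1948005, rank 108) and 1053 (1951697 to 1952124, rank 109). Their ranks were 113 and 108 in replicate 1 and 128 and 126 in replicate 3. Both replicates thus placed the second just ahead, the opposite of the pooled order, and the differences in signal were small in each list (566.7 and 582.1 in replicate 1, 487.7 and 488.7 in replicate 3).

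The remaining Hr4 regions had intermediate signals. They were 1948556 to 1948863 (signal 383.7, rank 875), 1963793 to 1964052 (332.3, rank 1125), 1943644 to 1943823 (291.1, rank 1347), 1944194 to 1944513 (247.3, rank 1705), 1953028 to 1953199 (138.2, rank 3777) and 1943814 to 1944051 (122.5, rank 4345). All 8 overlapped the top lists of both replicates. The last of them overlapped the one at 1943644 to 1943823 and its replicate regions. The median signal was 311.7, above the medians of the other 7 genes, which ran from 119.1 at br to 205.1 at EcR. No optimal summit lay within 500 bp of either start-site group. The nearest to the upstream group stood 1775 bp before it, outside the limit of 1 kb (signal 300.2).

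The sequences at the summits of the Eip78C and Hr4 regions are shown since these are the strongest of the set (dm6, plus strand, chr3L:21253855-21253955, chrX:1947712-1947812 and chrX:1951862-1951962). Capitals mark TAATTA, a core that many homeodomain proteins recognise. It occurs at position 75 of the Eip78C window and position 1 of the first Hr4 window, counted from the left, and is missing from the other Hr4 window. The GC content was 24.8%, 29.7% and 43.6%, in that order.
Eip78C: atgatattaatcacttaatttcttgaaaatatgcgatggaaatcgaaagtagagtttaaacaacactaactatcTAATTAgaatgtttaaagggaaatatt
Hr4, first: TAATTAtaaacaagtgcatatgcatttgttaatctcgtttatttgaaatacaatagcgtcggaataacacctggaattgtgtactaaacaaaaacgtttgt
Hr4, second: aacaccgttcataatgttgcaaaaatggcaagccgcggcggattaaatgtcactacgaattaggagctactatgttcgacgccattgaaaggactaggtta

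Hr3, the nuclear receptor gene whose product activates ftz-f1 and represses early genes at the prepupal transition, had regions upstream of its first start site and in its introns. The gene (2R, 10203995 to 10237348, minus strand, 33354 bp) has start-site groups for Hr3-RD, for Hr3-RC and Hr3-RI, and for Hr3-RA, Hr3-RF and Hr3-RH. A region lay 459 bp upstream of the start site of Hr3-RD (10237592 to 10238021, signal 223.6, rank 1956), with an overlapping weaker one beside it (10237791 to 10238220, signal 106.2). The summit of the weaker one was 658 bp from that start site, outside the limit of 500 bp. Both lay within 500 bp of the start sites of Hdc, the histidine decarboxylase gene, and of a long noncoding RNA gene. The distances do not tell which gene is concerned. The stronger region had rank 1856 in replicate 1 and 1723 in replicate 3. The intronic regions, at 10210660 to 10210848 (signal 232.8, rank 1839, ranks 1927 and 1805 in the replicates) and 10219996 to 10220198 (signal 185.3, ranks 3162 and 2351), lay 17113 and 7880 bp downstream of the nearest start site. The gene models CG12912 and CG46321 overlap Hr3 on the same strand and cover both intronic regions. No pooled region was found within 500 bp of the middle or the downstream start-site group.

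Hr39, a nuclear receptor gene related to ftz-f1, was the only one of the 9 genes without an optimal region within 1 kb. The gene (2L, 21237250 to 21259675, plus strand, 22426 bp) held 16 pooled regions, with signals from 17.3 to 64.3. The strongest (21243956 to 21244385, intron, 6921 bp from the start site, rank 8392) had rank 5319 and signal 55.7 in replicate 1, inside that replicate's top list, and no overlapping region in replicate 3. At the start site replicate 3 had a region of rank 7092 and replicate 1 one of rank 8149, outside the top lists, and CG31626 starts within 500 bp of its summit. The strongest pooled region within 500 bp of the start site had a signal of 48.4. Regions at Hr39 were thus present in the deep lists and below the limit of the optimal list.

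At ftz-f1, which encodes the nuclear receptor that makes prepupal tissue competent to respond to the next hormone pulse, the 3 optimal regions were intronic. The gene (3L, 18750607 to 18801309, minus strand, 50703 bp) has an upstream start site for ftz-f1-RB and, 35565 and 36353 bp downstream, those of ftz-f1-RC with ftz-f1-RD and of ftz-f1-RA. The strongest region (18756433 to 18756862, signal 188.8, rank 2531) lay 8308 bp downstream of the last, with rank 2587 in replicate 1 and 2401 in replicate 3. The others lay 3725 bp (18769254 to 18769683, signal 143.0, ranks 3339 and 4094) and 5746 bp (18771275 to 18771704, signal 88.7, ranks 4752 and 10090) upstream of the start site of ftz-f1-RC and ftz-f1-RD. The weakest of these was thus outside the top list of replicate 3, and it lay within 1 kb of a long noncoding RNA gene. The start site of ftz-f1-RB had a pooled region of signal 47.4, 70 bp away, and those of the downstream transcripts had none within 500 bp. The summit window of the strongest region is shown on the gene's strand (dm6, chr3L:18756598-18756698, minus strand). It too has no match to the motifs searched for, and its GC content was 27.7%.
ftz-f1: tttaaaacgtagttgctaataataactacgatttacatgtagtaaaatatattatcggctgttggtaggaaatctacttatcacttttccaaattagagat

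**Figure D2:**
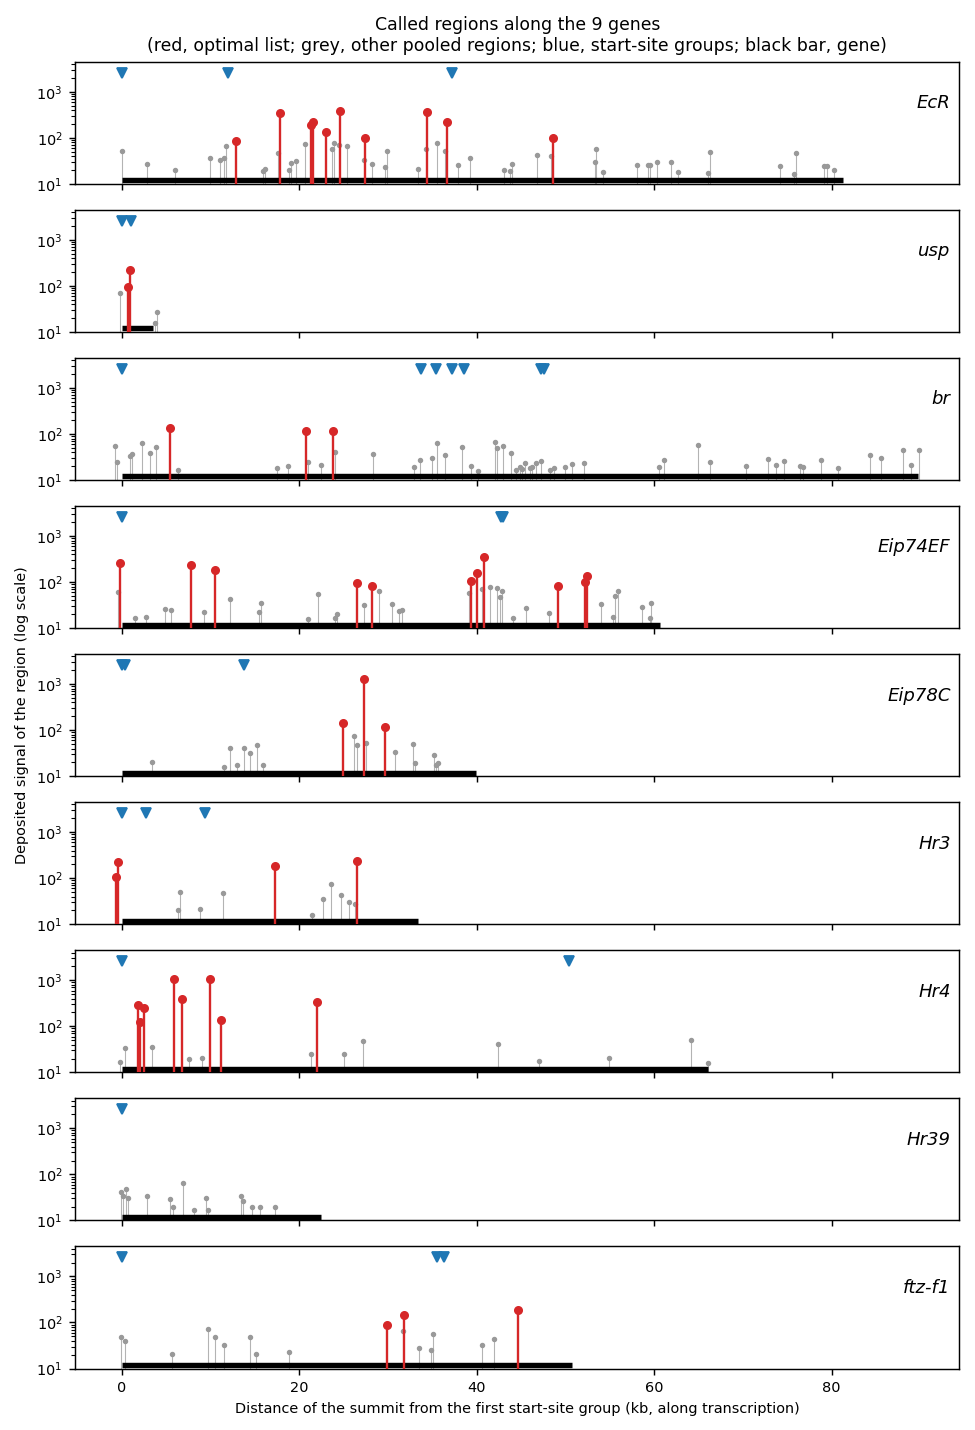
Signal (log scale) of each called region along the 9 genes, by distance of its summit in kb from the first start-site group in the direction of transcription. Red stems are the 44 optimal regions, grey stems the 214 other pooled regions, blue triangles start-site groups and black bars the genes. At EcR, Eip74EF and Hr4 most red stems stand between the first and the last triangle, at br few rise among many grey ones, and at Hr39 there is none.

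Across the set, few alternative promoters carried an optimal region, as was also the case over protein-coding genes at large. Start sites of a gene no more than 100 bp apart were joined into a group, which gave 27 groups at the 9 genes. An optimal summit lay within 500 bp of 3 of them, at usp-RA, at the distal start of Eip74EF and at Hr3-RD. That was 11.1%, against 21.0% of such groups over all protein-coding genes and 16.4% over those of the length range, and without usp it was 2 of 25 groups (8.0%). The count of 3 is small, and 7 of the 27 groups belong to br, so the set is not set apart from the length range by it. A further 14 groups had a weaker pooled region within 500 bp, with signals from 26.0 to 76.0, and 10 had no pooled region there. By regions, 4 of the 44 (9.09%, exact Clopper-Pearson 95% interval 2.53 to 21.7, counting error alone) lay within 500 bp of a start site of their gene. The share was 46.3% for all optimal regions assigned to a protein-coding gene and 17.0% for those at genes of the length range. At the 8 genes of that range, usp left out, it was 2 of 42 (4.76%, exact interval 0.582 to 16.2), since usp supplied 2 of the 4. Both intervals treat regions as independent, although some overlap, among them the pair at usp. The location of the 44 summits was intronic in 40, upstream of the gene in 3 and in a 5′ UTR in 1.

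Most of the regions stood between alternative promoters, as they did over genes of the length range at large. From the first to the last start-site group lay 31 of the 44 regions, 1.3 per 10 kb, and after the last group 10, or 0.514 per 10 kb at the 8 genes with more than 1 group, usp included. In the 1 kb before the first group the density was higher than in either stretch, 3.75 per 10 kb from 3 regions. Of these, 1 was at Eip74EF and 2 were the overlapping pair upstream of Hr3, which also lay near the start site of Hdc. In the 476 genes of the length range with more than 1 group the densities were 0.887 between, 0.314 after and 2.25 before. By count, 887 of their regions lay between, 324 after and 107 before. The order of the 3 stretches by density was thus the same there, and most regions lay between there too. Single genes differed, since Eip78C and Hr3 had no region between their start-site groups, ftz-f1 had 0.55 per 10 kb between and 0.652 after, and Eip74EF had 1.63 and 1.61. This division of the genes was chosen after the positions had been seen.

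Most of the set overlapped the top lists of both replicates by at least 1 bp. The optimal list was itself made from these 2 libraries and rests on their agreement, so such overlap is partly built in. With summits within 100 bp the share was 70.5%, and with an overlap of 50% of both lengths 52.3%. The shares of all optimal regions by those stricter definitions are not given. Of the 44 regions, 38 overlapped a region of the top lists of both replicates, 86.4% (exact interval 72.6 to 94.8), against 80.1% of all optimal regions. Of the others, 4 reached only the top list of replicate 1 and 2 only that of replicate 3. The 6 had signals up to 101.8, and all 33 regions with rank 5000 or better were in both, as were 95.3% of all optimal regions of such rank. Each of the 44 overlapped some region of each whole replicate list, as did 6712 of all optimal regions, and the median distance between the replicate summits at the genes was 35.0 bp. Spearman's rho of the replicate signals was 0.803 across the 44 regions and 0.779 across the 6712. These are descriptions across regions of 1 pair of libraries, and 4 overlapping pairs among the 44, with summits 199 to 208 bp apart, share their replicate regions in whole or in part. The neighbouring EcR pair at 6147478 to 6147683 and 6147714 to 6147919 does not overlap but shares its region in each replicate. The 44 regions are thus not all independent, while the exact interval treats them so.

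**Figure D3:**
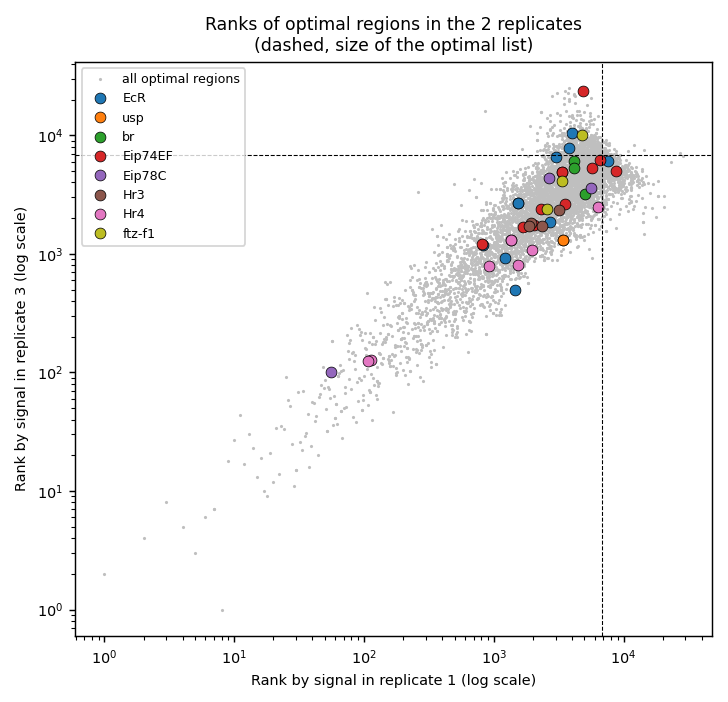
Rank by signal in replicate 1 and replicate 3 (log scales) of the optimal regions with a counterpart in each replicate, 6712 in all (grey), with those at the genes coloured. Dashed lines mark rank 6835. The regions of Eip78C and Hr4 at about rank 100 lie at the lower left, 38 of the 44 lie inside both lines, and a region of Eip74EF is far up with rank 23801 in replicate 3.

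Base composition at the summits differed between strong and weak regions of the set. GC content within 50 bp of the summit averaged 38.2% over the 44 regions (SD 11.4), and 46.1% in the flanking windows centred 300 bp away. For all optimal regions these values were 34.4% (SD 8.56) and 44.7%. A subset of 23 ranked among the 3417 strongest optimal regions and had a mean of 32.5% (SD 8.97), with lower GC than their flanks in 21. The 21 with lower rank had a mean of 44.3% (SD 10.7), and GC was lower than in the flanks in 10. For all optimal regions the corresponding means were 33.0% and 35.8%, and the shares with lower GC at the summit 85.8% and 74.5%. The AT-rich centre of the optimal regions was thus seen at the stronger regions of these genes, while the weaker ones averaged 43.5% in their flanks, about the value at their summits.

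Region shape moved with rank as well. Of the 21 weaker regions 19 had the commonest width of 430 bp with the summit at the middle, against 2 of the 23 stronger ones. Over all optimal regions the shares of that width were 88.2% and 15.9%. The mean summit GC content of regions of that width was 41.3% at these genes and 35.2% over all optimal regions. The part of region shape, or of any other cause, in the difference of base composition was not tested.

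**Figure D4:**
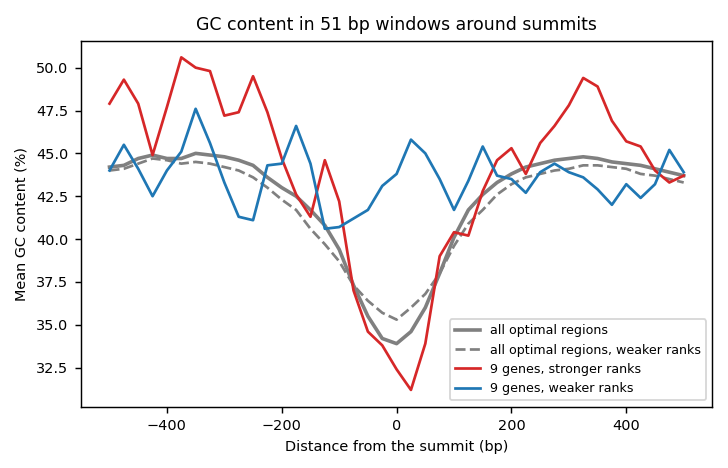
Mean GC content in 51 bp windows around the summits, by distance in bp. Red, the 23 regions of the genes among the 3417 strongest; blue, the 21 weaker ones; grey, all 6835 optimal regions, and dashed, those below rank 3417. At the summit the value is 32.4% for the red line, 43.8% for the blue, 33.9% for the grey and 35.3% for the dashed.

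The 101 bases centred on each summit were searched for short motifs, on either strand and with overlaps between motifs allowed. AGGTCA, the core recognised by nuclear receptors, was found in 1 of the 44 windows, at Eip74EF (2.27%), against 2.05% of the 6835 optimal windows. TAATTA was found in 6, 1 each at EcR, usp, Eip74EF, Eip78C, Hr3 and Hr4 (13.6% against 8.79%). GAGAG, recognised by the GAGA factor, was found in 4, at EcR, Eip74EF and Hr3 (9.09% against 9.6%). TCACGC, from the start of the Pax6 paired-domain site, was found in 0 windows (1.33% of all optimal windows), and so was TATCGATA, the DNA replication-related element (1.57%). With 44 windows a share of a few percent amounts to 1 or no window. A match of letters is not a site of binding.

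Other genes of the pathway were described from 3 lists. Of 14 further nuclear receptor genes 9 had an optimal region (64.3%), next to 34.1% of protein-coding genes and 62.2% of those in the length range. With the members, that made 15 of the 21 nuclear receptor genes looked at. The 14 genes had a median length of 8479 bp, so neither share is matched to them for length. The strongest regions were at Eip75B, an early gene (rank 41, intron, 16 regions), Hr96, a xenobiotic-response receptor gene (rank 572, 143 bp upstream of its start site), and knrl, the relative of knirps (rank 748, intron). No optimal region was found at Hr83, svp, tll, dsf and kni, and at tll and dsf the pooled list held none either.

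All 7 genes in the list of receptor cofactors had an optimal region, as did 34.1% of all protein-coding genes and 62.2% of those in the length range. Their median length of 12987 bp was below that range, so the second share is not matched for length. The best ranks were those of Smr, which encodes the corepressor SMRTER (rank 284, 6 regions), Sin3A, a corepressor gene (rank 587), and Hsp83, the chaperone gene (rank 816). At tai, the coactivator gene Taiman, 6 regions were found, the best at rank 1299, and at E(bx) and trr 1 each at ranks 6086 and 5592. The list of other ecdysone response genes had 13 names, 11 of which matched a gene model, and all 11 had an optimal region. The same 34.1% and 62.2% stand beside this, again not matched for length, since the median length was 15112 bp. The list was led by Sox14 (rank 18, 244 bp upstream of its start site), Eip63F-1 (rank 229) and Eip63E, a cyclin-dependent kinase gene (rank 296). At Eip93F, a late master regulator, the only region had rank 4026 and no counterpart in replicate 1. The lists were chosen with results of these data known, so their counts are descriptions, and the median best rank was 1722, 1299 and 2796 in the 3 lists, against 1408 at the 8 members with a region, 1811 over genes of the length range with one and 2604 over all protein-coding genes with one.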

How the data were processed

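The authors deposited lists of regions for each replicate and for both pooled, made for an IDR (irreproducible discovery rate) comparison, and an optimal list that passed it. Per the listings deposited with the files, each list was derived from the alignments of its libraries and a further alignment not described there, and the labels name possible controls, not analysed here. Caller, aligner and threshold: not given in the sources used here. The deposited signal of each region served only to rank and describe regions within a list, and the deposited summit offset placed each summit. The dm3 lists were not used here.

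Gene models came from Ensembl release 115 (BDGP 6.54) and sequence from Release 6 of the genome (dm6, RefSeq), and 0 regions lay past the end of their arm. The 6835 strongest regions of a replicate, as many as the optimal list holds, formed its top list, and an overlap of at least 1 bp counted as shared. Depth is unknown, since the lists give no read totals. The labels call the libraries biological replicates but do not say how the larvae were collected, so their spread may be partly technical.

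The genes and lists were chosen with earlier results of these data known, and no p-value was computed. The rule for naming took all 9 genes, every optimal region of a gene with 6 or fewer, otherwise the 5 strongest and those nearest to an alternative promoter, and the 3 best-ranked genes of each pathway list. The other regions of EcR, Eip74EF and Hr4, and the further pathway genes named, were added after their values were seen. Alternatives on gene window, list, replicate, distance and overlap were tried, and usp was left out as an alternative chosen after seeing the data. The code was tested on artificial regions with known answers. Python 3.11.15, NumPy 2.4.6 and SciPy 1.17.1 were used.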

Additional observations from a re-analysis of the deposited data

How the results depend on the processing

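The count of genes with a region (8) stayed between 7 and 9 under every alternative run. The share of all protein-coding genes with a region changed too, from 34.1% in the optimal list to 63.4% in the pooled list. For the other gene windows and the 3417 strongest regions no such share is given, so those counts stand without a background. Alternatives on the list moved most other values, as they change how many regions are considered. In the 3417 strongest optimal regions there were 23 regions at the genes (0.494 per 10 kb), the median best rank was 976 and the share in both replicates 100%. In the whole pooled list these were 258 regions, 5.54 per 10 kb, rank 1839 and 20.5%. With 1 replicate left out (the top list of the other in place of the optimal list), the density ran from 0.967 to 1.14 per 10 kb, the share near a start site from 9.43% to 15.6% and the median best rank from 1256 to 1856. With gene windows of 5 kb the median best rank was 1839, and Hr39 then had a region. Of these shares near a start site, 15.6% was the one without replicate 1. The best rank of EcR was 498 without replicate 1, and that of usp 3419 without replicate 3. The share near a start site was 4.55% at 250 bp and 15.9% at 1000 bp. The share of regions in both replicates depended on the definition of sharing: 52.3% with an overlap of 50% of both lengths, 70.5% with summits within 100 bp, and 100% against the whole replicate lists. With usp left out, an alternative chosen after seeing the data, the share near a start site was 4.76% and the median best rank 976. Merging regions of equal coordinates changed none of the 4 values recomputed with it. The regions at the genes held 0 pairs of equal coordinates, so there was nothing to merge. That alternative therefore could not test how the values depend on the processing. Depth is unknown, so a region missing from a list cannot be read as an absence of the protein.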
